A study of Mus musculus with 8 samples.

Results

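The collagen genes measured here are 38 genes that encode collagen chains, taken by gene name as a family; other collagen genes are not analysed here. The family and its classes were chosen with earlier results of these data known. By chain type the genes fell into 11 fibrillar chains, 6 chains of the type IV collagen of basement membranes and 21 other chains. Together they were read by 54 probes among the 19752 named genes on the array. Expression was measured on 1-colour Agilent arrays with RNA of mesonephric tubules, cut by microdissection out of frozen mouse embryo sections stained with toluidine blue. The mesonephros is a transient embryonic kidney, and the study set tubules of p21-null embryos, which its design text calls non-senescent, against those of wild-type embryos, which it calls senescent. The samples were 3 arrays labelled p21-null (p21KO -/-) and 5 wild-type arrays, all of strain C57/BL6 by label. The labels give no embryonic stage, sex or age, and do not say whether a sample is 1 embryo or a pool, so p-values cover the spread between these samples alone, which may be technical. How the p21 allele was made and in which cells it is missing are points not given in the sources used here.

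Collagens are secreted proteins whose chains wind in triples into a helix. Fibrillar chains, such as those of types I, III and V, align into the banded fibrils of connective tissue, while type II with types IX and XI builds the fibrils of cartilage. Type IV chains instead form a flat network in the basement membrane under every epithelium, including that of kidney tubules and glomeruli. The remaining chains decorate fibrils (the FACIT collagens, which carry interrupted helices), form short-chain networks or beaded filaments, anchor epithelia, or span the plasma membrane. Collagen chains are hydroxylated and folded with the help of chaperones, many are trimmed outside the cell, and most are cross-linked, by enzymes that are largely shared between the types.

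All values are log2 signals minus the 75th percentile of their array, and differences are the mean of labelled p21-null arrays minus the mean of wild-type arrays. Levels of different probes are not comparable with each other, so only the same gene across arrays is compared. Each array had 82.2% to 89.2% of its probes well above background, no spot was saturated, and pairs of arrays correlated between 0.866 and 0.952. The arrays lay on 3 slides that each held both groups: slide 1 had labelled p21-null replicate 1 with wild-type replicates 1, 2 and 3, slide 2 had labelled p21-null replicate 2 with wild-type replicate 4, and slide 3 had labelled p21-null replicate 3 with wild-type replicate 5. The local background averaged 38 to 44.1 for the arrays of slide 1, whereas slides 2 and 3 had 91.3 to 135. Cdkn1a, which encodes p21, stood at 2.11, 0.96 and 1.40 in labelled p21-null replicates 1 to 3 and at 2.49, 2.52, 0.44, 1.85 and 1.11 in wild-type replicates 1 to 5. The groups overlapped and differed by −0.19 (standard error, SE, 0.54; limma adjusted p = 0.950). Whether the probe lies in the deleted part of the gene is not known here, so the group is called labelled p21-null and every direction rests on that label.

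In the arrays labelled p21-null most collagen genes had lower mean signals. The counts are given by chain type, and differences between the classes were not tested. Of the 38 genes, 29 were lower and 9 higher, with a median difference of −0.65, whereas 52.3% of all 33619 genes and unnamed features tested were lower and their median difference was −0.03. The 21 other chains were lower in 19 cases, with a median of −0.93, and the 6 type IV chains in 5, with a median of −0.73. The 11 fibrillar chains were lower in 5 and higher in 6, with a median of 0.05, which was −0.15 after normexp background correction and quantile scaling. No collagen gene passed the adjusted threshold: limma with Benjamini-Hochberg adjustment over all features called 0 of 38 at an adjusted p under 0.05, against 0.0% of all features, and the smallest adjusted p among the collagens was 0.372.

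At an unadjusted p under 0.05, 4 collagens (10.5%) were lower, against 3.91% of all features, and 0 were higher, against 6.20%. In either direction 10.1% of all features reached that p, so the collagens' share is near the background. The 4 genes were Col4a4, Col8a2, Col9a1 and Col9a3. The count was 0 without labelled p21-null replicate 3, and leaving out wild-type replicate 2 gave 2 while leaving out wild-type replicate 3 gave 11, so it rests on single arrays. By size alone, 13 collagens (34.2%) were at least 2-fold lower, against 7.18% of all features, and 1 (2.63%), Col24a1, was at least 2-fold higher, against 7.77%. When single arrays were left out these counts ranged from 10 to 16 and from 1 to 5. The collagens also varied more than other genes among the wild-type arrays: the median SD was 1.20 over 37 collagens with a value on every array and 0.61 over all such features.

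**Figure D1:**
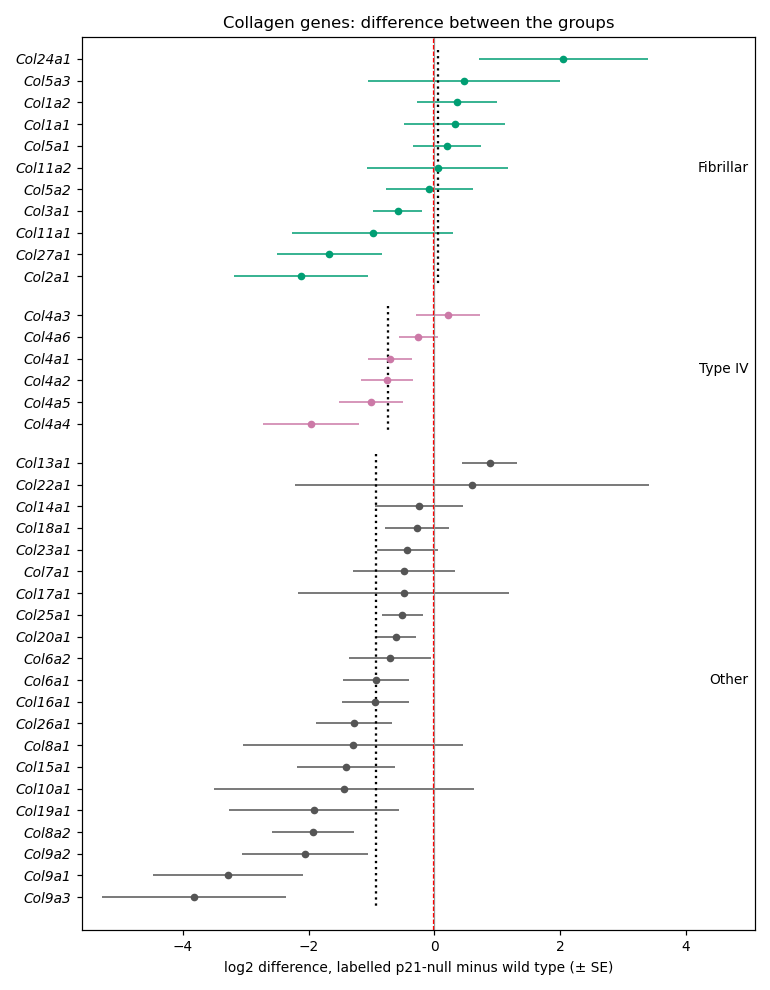
Difference in log2 signal, labelled p21-null (n = 3) minus wild type (n = 5), for each of the 38 collagen genes by chain type. Points are differences, bars are ± 1 standard error, dotted lines are the class medians (0.05 for fibrillar, −0.73 for type IV, −0.93 for other chains) and the dashed line is the median of all features (−0.03); points of the other class lie mostly left of 0 and those of the fibrillar class on both sides.

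Within slides the class medians did not keep 1 pattern. The fibrillar median was 1.16 on slide 1, −1.83 on slide 2 and −0.99 on slide 3. The type IV median was −0.70, 0.48 and −0.69, and the median of the other chains was −0.75, −0.36 and −1.77, below 0 on each slide. Of 37 collagens with a value on every array, 14 were lower on all 3 slides and 0 were higher on all 3, where 15.8% of all features were lower on all 3 and 15.8% were higher. The 14 were Col2a1, Col3a1, Col4a1, Col6a1, Col6a2, Col8a1, Col8a2, Col9a1, Col9a2, Col9a3, Col15a1, Col16a1, Col26a1 and Col27a1. Slides 2 and 3 held 1 array of each group, so these values have no replicate check.

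The fibrillar chains of type I, the main fibril of connective tissue, were not separated between the groups. Col1a1 stood at 5.66, 2.70 and 5.61 in labelled p21-null replicates 1 to 3, against 3.41, 4.78, 3.15, 4.82 and 5.50 in wild-type replicates 1 to 5. The lowest array of all 8 was labelled p21-null replicate 2, and the other arrays of that group were the highest. It averaged 4.66 ± 1.69 (SD, n = 3) in labelled p21-null arrays and 4.33 ± 1.01 (SD, n = 5) in wild-type arrays, and the difference was 0.32 with a 95% interval of −1.48 to 2.13 (limma adjusted p = 0.941). Col1a2, its partner in the type I trimer, averaged 5.16 ± 1.41 in labelled p21-null and 4.80 ± 0.68 in wild-type arrays, a difference of 0.36 with an interval of −1.07 to 1.79. Col3a1, which forms homotrimers in the same fibrils, was tight in the labelled p21-null arrays, at 4.55, 4.31 and 4.44, against 4.78, 5.68, 4.42, 4.50 and 5.68 in wild type. Its difference was −0.58 (SE 0.39, limma adjusted p = 0.693).

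Type V chains, which nucleate type I fibrils, differed little on average. Col5a1 averaged 3.28 ± 0.47 in labelled p21-null and 3.08 ± 0.94 in wild-type arrays, a difference of 0.20, and Col5a2 averaged −0.18 ± 0.75 and −0.10 ± 1.22, a difference of −0.08. Col5a3 was well above background on 3 of 3 labelled p21-null and 3 of 5 wild-type arrays, and its difference of 0.47 had a standard error of 1.52. The late-described fibrillar chains of types XXIV and XXVII pointed in opposite directions. Col24a1 stood at −0.16, −4.05 and −0.41 in labelled p21-null arrays, against −7.39, −1.85, −3.60, −2.23 and −2.90 in wild type, a difference of 2.05 (4.15-fold higher, SE 1.34, limma adjusted p = 0.683). Labelled p21-null replicate 2 lay below 4 of the 5 wild-type arrays, and wild-type replicate 1, where the probe was not well above background, was the lowest of all. Leaving out wild-type replicate 1 gave 1.10 (2.15-fold higher), and leaving out labelled p21-null replicate 2 gave 3.31. Col27a1, a chain found largely in cartilage, stood at 0.27, −0.61 and −0.27, against 1.60, 3.48, −1.05, 1.38 and 1.94, a difference of −1.67 (3.19-fold lower, SE 0.84, limma adjusted p = 0.564). For that gene wild-type replicate 3 lay below every labelled p21-null array and the other wild-type arrays lay above them, and the difference became −2.30 when that array was left out and −1.17 when wild-type replicate 2 was.

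**Figure D2:**
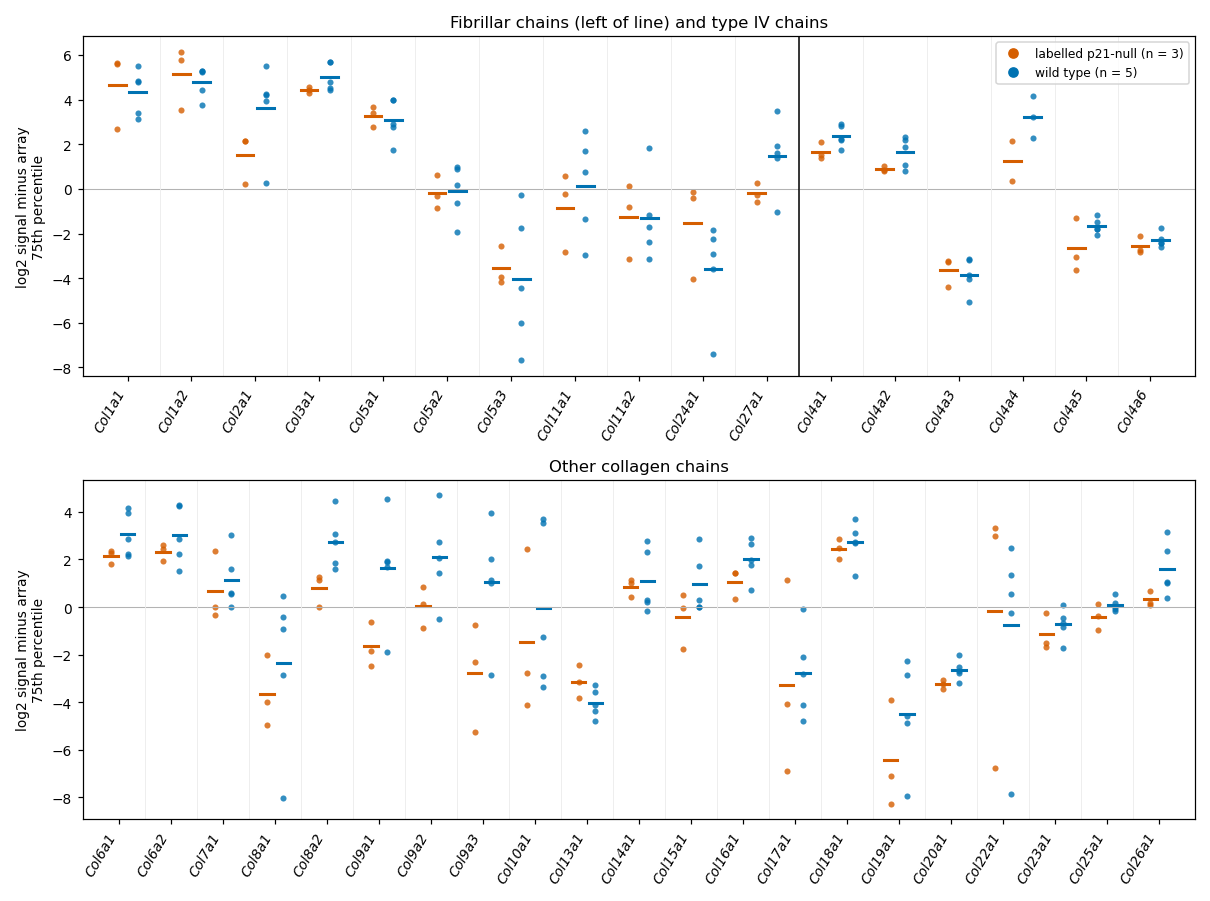
Log2 signal minus the 75th percentile of the array for the 38 collagen genes, with 1 point per array and a bar at the mean of labelled p21-null (left, n = 3) and wild-type arrays (right, n = 5). Col8a2 is the gene, among the 37 with a value on every array, whose groups do not overlap, while Col1a1, Col10a1 and Col22a1 spread widely within both groups; Col4a4, whose remaining values do not overlap either, has 2 and 3 values because its spot was an outlier on the other arrays.

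A set of 7 chains is known from cartilage: Col2a1, Col9a1, Col9a2, Col9a3, Col10a1, Col11a1 and Col11a2. Of these 7, 6 were lower in the labelled p21-null arrays, with a median difference of −2.06, and 2 were lower at an unadjusted p under 0.05 (28.6%, against 3.91% of all features). That count rests on single arrays: it was 0 without labelled p21-null replicate 3, 1 without labelled p21-null replicate 1 or 2 or wild-type replicate 2 or 4, and 4 without wild-type replicate 3. Without these chains the other 8 fibrillar chains had a median of 0.26, with 3 lower. They include Col27a1 (−1.67), which is found largely in cartilage but was not in the set of 7. The 17 remaining chains of the other class had a median of −0.61, with 15 lower.

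Type IX collagen is a FACIT trimer of 3 different chains on the surface of type II fibrils. The promoter windows of Col9a1 and Col9a2 are shown because these chains gave large differences and tracked each other across arrays. They run from 250 bases before to 50 after the start of transcription, in RefSeq GRCm38.p6. The Col9a1 window of the first of its starts in that table is chr1:24177360-24177659 and that of Col9a2 is chr4:121039316-121039615, both on the plus strand, and capitals mark matches to the SOX core, TATA box and CCAAT box letters given further on.
Col9a1: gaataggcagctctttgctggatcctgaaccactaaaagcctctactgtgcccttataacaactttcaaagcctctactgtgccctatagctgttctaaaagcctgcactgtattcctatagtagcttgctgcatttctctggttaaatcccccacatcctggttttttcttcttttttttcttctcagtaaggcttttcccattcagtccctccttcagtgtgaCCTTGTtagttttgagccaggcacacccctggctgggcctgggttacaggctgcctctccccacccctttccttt
Col9a2: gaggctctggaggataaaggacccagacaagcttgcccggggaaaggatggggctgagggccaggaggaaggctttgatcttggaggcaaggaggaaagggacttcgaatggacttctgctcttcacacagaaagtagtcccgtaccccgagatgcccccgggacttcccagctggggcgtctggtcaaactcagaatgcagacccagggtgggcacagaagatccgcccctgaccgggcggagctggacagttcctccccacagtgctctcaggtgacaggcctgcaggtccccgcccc
The Col9a1 window shown held 1 SOX core match and the Col9a2 window held none of those 3 motifs. The window of the other Col9a1 start, chr1:24194953-24195252, held 0 SOX core matches and 1 CCAAT box match.

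Col9a1 stood at −0.64, −1.83 and −2.47 in labelled p21-null replicates 1 to 3, against 1.88, 4.56, −1.90, 1.95 and 1.67 in wild-type replicates 1 to 5. Apart from wild-type replicate 3, each wild-type array was above each labelled p21-null array. It averaged −1.64 ± 0.93 (SD, n = 3) in labelled p21-null arrays and 1.63 ± 2.30 (SD, n = 5) in wild-type arrays, and the difference was −3.28 (9.69-fold lower, SE 1.19). The unadjusted limma p was 0.0224, the adjusted p was 0.400 and the exact permutation p (two-sided, over 56 splits) was 0.107, where the smallest possible was 0.0179. With wild-type replicate 3 left out the difference was −4.16 (17.9-fold lower), and with wild-type replicate 2 left out it was −2.54 (5.83-fold lower). A second Col9a1 probe differed by −2.52. Col9a3 stood at −2.29, −0.75 and −5.27, against 1.15, 3.96, −2.85, 2.01 and 0.99 in wild type, again with only wild-type replicate 3 among the labelled p21-null values. Its difference of −3.82 (14.1-fold lower, standard error 1.46) had a limma adjusted p of 0.420. Single arrays moved it: leaving out labelled p21-null replicate 3 gave −2.57 (5.94-fold lower), and leaving out replicate 2 of that group gave −4.83 (28.5-fold lower). Col9a2 stood at 0.14, 0.83 and −0.88, against 2.08, 4.70, −0.49, 2.74 and 1.42, and its difference was −2.06 (limma adjusted p = 0.541). It became −2.71 with wild-type replicate 3 left out, and −1.41 with wild-type replicate 2 left out.

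The fibrillar chains of cartilage, Col2a1, Col11a1 and Col11a2, were each highest in wild-type replicate 2 and, among wild-type arrays, lowest in replicate 3. Their order over the labelled p21-null arrays differed. Col2a1, the main cartilage fibril chain, stood at 2.14, 2.13 and 0.24 in labelled p21-null arrays, against 3.95, 5.49, 0.27, 4.24 and 4.20 in wild type, a difference of −2.12 (4.36-fold lower, SE 1.06, limma adjusted p = 0.559). Leaving out wild-type replicate 3 gave −2.96, whereas leaving out labelled p21-null replicate 3 gave −1.49. Col11a1, which sets fibril diameter with type II, stood at 0.57, −2.84 and −0.25, against −1.35, 2.60, −2.95, 1.68 and 0.74, a difference of −0.98 (SE 1.28). Col11a2 differed by 0.05 and overlapped throughout. Col10a1, the chain of hypertrophic cartilage, ranged from −4.12 to 2.44 in labelled p21-null arrays and from −3.35 to 3.72 in wild-type arrays, so its difference of −1.44 had a standard error of 2.07.

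The cartilage chains varied within both groups. The SDs over wild-type and labelled p21-null arrays were 3.44 and 3.46 for Col10a1, and 2.30 and 0.93 for Col9a1. The mean of the 7 chains was 0.35, −1.39 and −1.74 in labelled p21-null replicates 1 to 3 (SD 1.12). It was 0.28, 3.84, −1.76, 2.14 and 0.63 in wild-type replicates 1 to 5 (SD 2.1). Wild-type replicate 2 was the highest of all 8 arrays for 7 of the 7 chains, and wild-type replicate 3 was the lowest wild-type array for 6 of 7. A list of 13 cartilage and skeletal precursor markers ran the same way over the wild-type arrays: its mean was −1.28, −2.43 and −2.28 in labelled p21-null arrays and −0.66, 2.20, −2.56, 0.63 and −0.52 in wild-type arrays. Of its 13 genes, 10 were lower and 3 higher in the labelled p21-null arrays, the log2 of the summed signal ranged from 2.85 to 3.51 in labelled p21-null arrays and from 3.16 to 6.99 in wild-type arrays, and 0 of the 13 were undetected on every array. Sox9, the transcription factor of cartilage precursors, stood at −2.64, −1.06 and −3, against 0.04, 1.31, −0.79, 1.14 and −1.36. Its two-sided exact permutation p of 0.0536 was the smallest of the 13 genes. The 3 higher genes were Sox6 (0.75), Runx2 (0.65) and Sp7 (0.93). The part of cartilage tissue in these differences was not tested, and in bulk samples fewer cells of a type and less RNA per cell cannot be told apart.

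**Figure D3:**
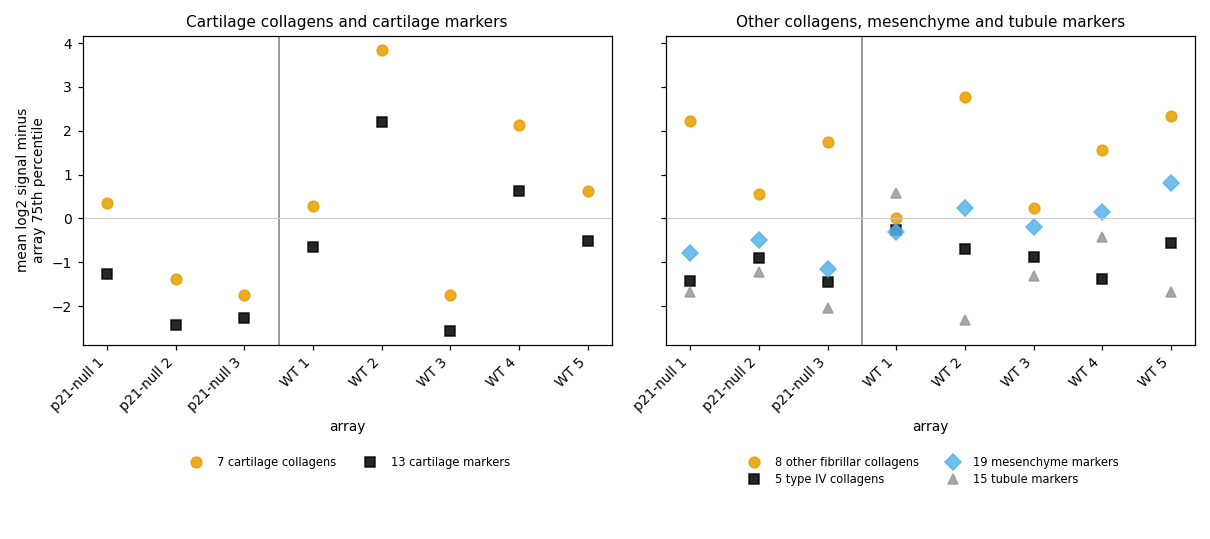
Mean log2 signal minus the 75th percentile of the array per array, labelled p21-null left of the line and wild type (WT) right of it. In the left panel the 7 cartilage collagens (circles) and 13 cartilage markers (squares) are both highest in wild-type replicate 2 (3.84 and 2.20); the right panel shows the other 8 fibrillar collagens, 5 type IV collagens with a value on every array, and the means of 19 mesenchyme and 15 tubule marker genes.

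Type IV chains form the basement membrane network, and Col4a1 with Col4a2 makes its main embryonic trimer. These 2 genes lie head to head on chromosome 8, and their promoter windows are shown because the windows overlap. In RefSeq GRCm38.p6 the Col4a1 window is chr8:11312777-11313076 on the minus strand and the Col4a2 window is chr8:11312555-11312854 on the plus strand. The start sites lie 21 bases apart, and the capitals mark the 78 bases that the windows share, each read 5′ to 3′ on its own strand.
Col4a1: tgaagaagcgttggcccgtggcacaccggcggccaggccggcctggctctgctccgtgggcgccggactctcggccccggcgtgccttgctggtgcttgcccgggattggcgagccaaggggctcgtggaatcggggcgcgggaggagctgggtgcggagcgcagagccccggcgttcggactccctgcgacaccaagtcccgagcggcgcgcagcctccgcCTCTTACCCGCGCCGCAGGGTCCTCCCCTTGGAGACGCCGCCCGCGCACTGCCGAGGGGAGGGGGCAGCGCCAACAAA
Col4a2: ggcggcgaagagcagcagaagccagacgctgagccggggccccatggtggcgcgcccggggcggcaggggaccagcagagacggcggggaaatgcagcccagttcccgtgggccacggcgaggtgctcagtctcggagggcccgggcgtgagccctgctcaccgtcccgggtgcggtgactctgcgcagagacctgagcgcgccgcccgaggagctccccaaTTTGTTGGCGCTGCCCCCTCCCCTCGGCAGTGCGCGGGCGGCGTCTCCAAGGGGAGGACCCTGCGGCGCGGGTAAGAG
Their GC content was 74.0% and 73.7%, where the median over all promoter windows was 52.7%.

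Both genes were lower on average in the labelled p21-null arrays. Col4a1 stood at 2.08, 1.40 and 1.54 in labelled p21-null replicates 1 to 3, against 2.90, 2.82, 2.18, 1.76 and 2.23 in wild-type replicates 1 to 5. Among the wild-type arrays, replicate 4 alone lay below a labelled p21-null array, replicate 1. It averaged 1.67 ± 0.36 (SD, n = 3) in labelled p21-null arrays and 2.38 ± 0.48 (SD, n = 5) in wild-type arrays, and the difference was −0.71 (1.63-fold lower) with a 95% interval of −1.51 to 0.09 and a limma adjusted p of 0.562. Col4a2 stood at 1.01, 0.82 and 0.85, against 2.18, 1.89, 1.07, 0.78 and 2.31, a difference of −0.75 (1.68-fold lower) with an interval of −1.68 to 0.18. Wild-type replicate 4 was again the exception and was the lowest of all 8 arrays. Within slides Col4a1 differed by −0.55, −0.37 and −0.69, and Col4a2 by −0.70, 0.04 and −1.45.

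The chains of the mature glomerular basement membrane network, Col4a3, Col4a4 and Col4a5, were mixed. Col4a3 averaged −3.64 ± 0.65 in labelled p21-null and −3.86 ± 0.79 in wild-type arrays, a difference of 0.21. Col4a4 differed by −1.96 (3.88-fold lower, unadjusted p = 0.0429, limma adjusted p = 0.475) on its brightest probe, whose spot was marked as an outlier on 3 arrays and dropped there. The remaining values were 2.15 and 0.37 in labelled p21-null replicates 1 and 3, against 4.14, 3.21 and 2.30 in wild-type replicates 1, 2 and 3, and did not overlap. It became −1.07 when labelled p21-null replicate 3 was left out, and was −2.84 when replicate 1 was. The other 2 Col4a4 probes, with values on all 8 arrays, differed by −1.03 and −0.29, with unadjusted limma p-values of 0.157 and 0.565 at probe level. Col4a5 stood at −3.06, −1.29 and −3.65, against −1.48, −2.06, −1.19, −1.78 and −1.80, with labelled p21-null replicate 2 inside the wild-type range, and differed by −1.01 with a limma adjusted p of 0.568. Col4a6, an epithelial basement membrane chain that assembles with Col4a5, differed by −0.26 with an interval of −0.98 to 0.45. Its second probe differed by −1.01.

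The tubule markers give the epithelium in each sample beside these chains. Over 16 marker genes of mesonephric duct and tubule, 0 were undetected on every array, and Pax2, Pax8, Lhx1 and Gata3 were above background on all 8. Ret, the receptor of the nephric duct, was above background on 0 of 3 labelled p21-null and 4 of 5 wild-type arrays. Its difference of −2.57 was the largest on the lower side of the list, and wild-type replicate 2 (−8.09) lay inside the labelled p21-null range. On the higher side were Cdh1 (1.65), Krt8 (0.33), Krt19 (0.26), Lhx1 (0.09) and Epcam (0.08). Of the 16 genes, 11 were lower and 5 higher. The mean of the 15 genes with a value on every array was −1.67, −1.22 and −2.05 in labelled p21-null arrays, against 0.57, −2.31, −1.32, −0.43 and −1.68 in wild-type arrays. The log2 of their summed signal ranged from 3.51 to 4.02 in labelled p21-null arrays and from 3.36 to 5.35 in wild-type arrays. Their part in the type IV differences was not tested. The type IV chains varied little between wild-type arrays, with a median SD of 0.48 over 5 genes.

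Basement membranes also hold chains outside type IV. Col15a1, a multiplexin at the outer face of basement membranes, stood at 0.52, −1.75 and −0.04 in labelled p21-null arrays, against 0.28, 2.84, −0.01, 0.02 and 1.73 in wild type, a difference of −1.40 (limma adjusted p = 0.615), or −0.73 without labelled p21-null replicate 2. Labelled p21-null replicate 1 lay above 3 of the 5 wild-type arrays. Its 3 probes differed by −1.40, −1.28 and −1.10. Col18a1, whose end fragment is endostatin, differed by −0.27 on one probe and 0.24 on the other, so its probes disagreed in sign. Col7a1, the anchoring fibril chain, stood at 0.00, 2.35 and −0.35 in labelled p21-null arrays, against 3.04, 0.59, 0.53, 0.00 and 1.60 in wild type, a difference of −0.49. Col17a1, a hemidesmosome protein, spanned −6.91 to 1.13 in labelled p21-null arrays and −4.79 to −0.08 in wild-type arrays, and differed by −0.49 (SE 1.68). With Col7a1, Col15a1, Col17a1 and Col18a1 added, the basement membrane class held 10 genes, 9 of them lower, with a median of −0.60.

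Among the short-chain network collagens Col8a2, a chain known from the basement membrane of corneal endothelium and from vessel walls, was the single collagen whose groups did not overlap among the 37 with a value on every array. In comparison, 2.44% of all features had every labelled p21-null array below every wild-type array, so the share is near the background. Its promoter window is shown as that of this gene, chr4:126286544-126286843 on the plus strand of RefSeq GRCm38.p6, with the same motif matches in capitals.
Col8a2: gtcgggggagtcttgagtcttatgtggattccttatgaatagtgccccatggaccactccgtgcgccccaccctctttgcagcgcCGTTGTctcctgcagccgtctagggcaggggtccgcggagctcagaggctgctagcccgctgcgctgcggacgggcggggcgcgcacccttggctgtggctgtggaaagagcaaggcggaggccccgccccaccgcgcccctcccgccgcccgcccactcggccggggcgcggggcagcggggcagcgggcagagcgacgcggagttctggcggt
It stood at 1.15, 1.26 and 0.00 in labelled p21-null replicates 1 to 3, against 1.59, 4.45, 1.85, 2.72 and 3.06 in wild-type replicates 1 to 5. The lowest wild-type array was 1.59 and the highest labelled p21-null array 1.26. It averaged 0.80 ± 0.70 (SD, n = 3) in labelled p21-null arrays and 2.73 ± 1.13 (SD, n = 5) in wild-type arrays, and the difference was −1.93 (3.81-fold lower, SE 0.65). The unadjusted limma p was 0.0154, the adjusted p was 0.372 and the two-sided exact permutation p was 0.0357. Within slides it differed by −1.48, −1.46 and −3.06, and its second probe differed by −1.76. Col8a1, its partner chain, spanned −4.97 to −2 in labelled p21-null arrays and −8.01 to 0.47 in wild-type arrays, with a difference of −1.30 and a standard error of 1.75.

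The beaded-filament chains of type VI, which form microfibrils around cells, were lower on average and moved together. Col6a1 stood at 2.27, 1.80 and 2.37 in labelled p21-null arrays, against 2.86, 3.95, 2.23, 2.16 and 4.18 in wild type, a difference of −0.93 (1.90-fold lower) with an interval of −2.12 to 0.27. Col6a2 stood at 2.43, 1.93 and 2.61, against 2.88, 4.27, 1.5, 2.22 and 4.24, a difference of −0.70 with an interval of −2.18 to 0.78. For both genes wild-type replicates 2 and 5 stood above the rest, and wild-type replicates 3 and 4 lay within or below the labelled p21-null range.

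The FACIT collagens outside type IX were mostly lower on average. Over all 8 FACIT chains, type IX included, 7 were lower, with a median of −1.43. The type IX chains had the largest of these differences, and the other FACIT chains ranged from −1.92 (Col19a1) to 0.60 (Col22a1). Col16a1 stood at 1.44, 0.33 and 1.42 in labelled p21-null arrays, against 1.78, 2.91, 0.72, 1.96 and 2.67 in wild type, with wild-type replicate 3 as the 1 array inside the labelled p21-null range, and a difference of −0.94 (limma adjusted p = 0.622). Its 3 probes all differed downward, between −0.99 and −0.76. Col14a1, which binds type I fibrils, differed by −0.24, and Col20a1 by −0.61 with an interval of −1.33 to 0.11. Col19a1 was well above background on 1 of 3 labelled p21-null and 4 of 5 wild-type arrays, and its difference of −1.92 had a standard error of 1.35. Col22a1, a chain of tissue junctions, swung between arrays of the same group: 3.33, −6.76 and 2.98 in labelled p21-null, against −7.86, 1.33, −0.27, 2.49 and 0.53 in wild type. Its difference of 0.60 had a standard error of 2.82.

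Of the 4 transmembrane collagens, 3 were lower on average and Col13a1 higher. Col13a1, a transmembrane chain of cell adhesions, stood at −3.15, −3.81 and −2.44 in labelled p21-null arrays, against −4.37, −3.29, −4.77, −3.55 and −4.11 in wild type, with a difference of 0.88 (1.85-fold higher), a standard error of 0.44 and a limma adjusted p of 0.562. Labelled p21-null replicates 1 and 3 were the highest arrays and replicate 2 lay among the wild-type values. Col23a1 differed by −0.43, −0.54 and 0.03 on its 3 probes and Col25a1 by −0.51, 0.03 and −0.30. Col26a1, a secreted chain, stood at 0.10, 0.69 and 0.18, against 1.06, 2.37, 0.38, 1.02 and 3.15, and differed by −1.28 (2.42-fold lower) with a limma adjusted p of 0.537. Among the wild-type arrays, replicate 3 lay inside the labelled p21-null range for it.

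Across the family the brightest probe of 31 of 38 genes was well above background on all 8 arrays. That of 6 was not (Col5a3, Col8a1, Col17a1, Col19a1, Col22a1 and Col24a1). That of Col4a4 was above it on the 5 arrays where its spot was kept, and its other 2 probes were on all 8. All 38 genes passed the filter of 3 arrays. There were 11 genes with several probes, of which 8 had all probes on the same side of 0 and 3 did not (Col18a1, Col23a1 and Col25a1). Among the wild-type arrays, replicate 2 was the highest for 21 of 37 collagens and replicate 3 the lowest for 19. The median wild-type SD was 2.27 for the cartilage chains, 1.63 for the fibrillar class, 1.23 for the other class and 0.48 for type IV.

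Partner chains that enter the same trimer, fibril or network were compared across the 8 arrays for 9 pairs, with permutation p-values over pairings adjusted over the 9. Slides held too few arrays for within-slide values. Col1a1 and Col1a2 gave Pearson's r of 0.96 (exact permutation p = 0.000248, adjusted 0.00223) and Spearman's rho of 0.90 (adjusted permutation p = 0.0137). Without the 2 arrays farthest from the median of Col1a1, r was 0.90, and over deviations from the group means it was 0.96. Col9a1 and Col9a2 gave r of 0.95 (adjusted permutation p = 0.00346) and rho of 0.98 (adjusted 0.00357), with r of 0.86 without 2 arrays and 0.93 over deviations. Col6a1 and Col6a2 gave r of 0.95 (adjusted permutation p = 0.00573) and rho of 0.90, with r of 0.70 without 2 arrays and 0.97 over deviations. These 3 pairs thus also tracked each other over deviations pooled from both groups, and neither group was tested alone. In labelled p21-null replicates 1 to 3 the order of Col9a1 (−0.64, −1.83 and −2.47) differed from that of Col9a2 (0.14, 0.83 and −0.88). Chains that are not partners were not compared, so the tracking is not shown to be particular to partners.

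The head-to-head genes Col4a1 and Col4a2 gave r of 0.81 (exact permutation p = 0.0221, adjusted 0.0497) and rho of 0.86 (adjusted 0.0241), with r of 0.70 without 2 arrays and 0.68 over deviations. Col2a1 and Col11a1 gave r of 0.67 (adjusted permutation p = 0.104) and rho of 0.81 (adjusted 0.0392), so the measures fell on different sides of the threshold. The pairs that missed it on both measures were Col4a5 with Col4a6 (r = 0.67), Col8a1 with Col8a2 (r = 0.65), Col5a1 with Col5a2 (r = 0.63) and Col1a1 with Col3a1 (r = 0.37). For Col1a1 with Col3a1 r was −0.01 without 2 arrays, for Col4a5 with Col4a6 it was 0.24, for Col5a1 with Col5a2 it was 0.69 and for Col8a1 with Col8a2 it was 0.92. Col4a3 and Col4a4 shared 5 arrays and were not tested.

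**Figure D4:**
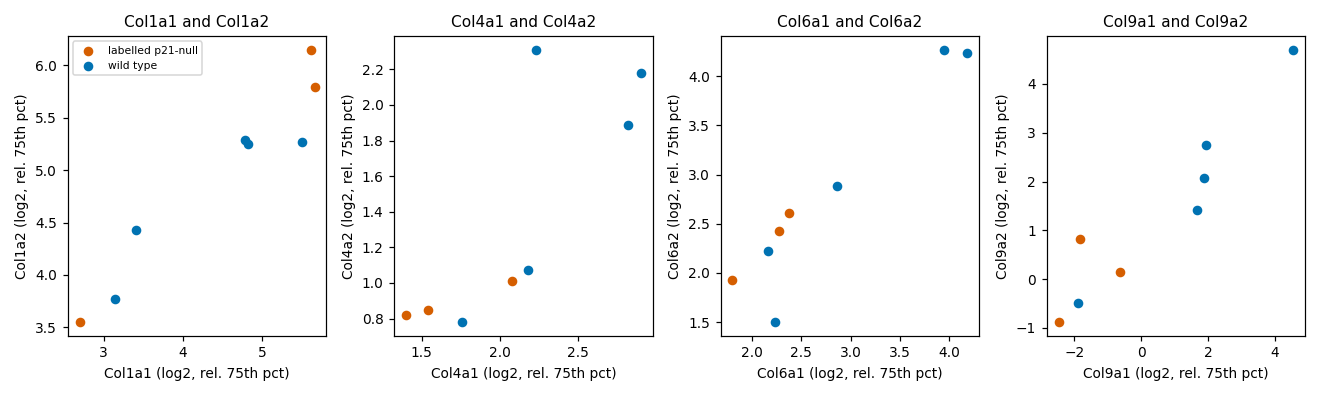
Log2 signal minus the 75th percentile of the array for 4 pairs of partner chains, with 1 point per array (labelled p21-null, n = 3, and wild type, n = 5). Points lie near a line for Col1a1 with Col1a2 (r = 0.96), Col6a1 with Col6a2 (0.95) and Col9a1 with Col9a2 (0.95), and scatter more for Col4a1 with Col4a2 (0.81).

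RefSeq held windows of 300 bases for 30 of the collagen genes (33 windows) among 32851 windows of all genes, and motifs were searched on both strands. TATAAA, the TATA box, was in 5 of 33 collagen windows (15.2%), against 13.6% of all. CCAAT was in 12 (36.4%), against 37.4%, and ACAANG, the core of SOX factor sites, in 9 (27.3%), against 41.2%. GGGCGG, the GC box, was in 20 (60.6%), against 35.7%. In the windows searched for capitals 0 matches of different motifs overlapped. A match is a run of letters and not a bound site.

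Genes that process, bind and sense collagen had a smaller median difference than the collagens. Of 64 genes in 6 lists, 61 passed the filter on low signals. Of these 36 were lower and 25 higher, with a median difference of −0.19, beside −0.03 over all features. At an unadjusted p under 0.05, 3 were lower (4.92%, against 3.91% of all features) and 2 higher (3.28%, against 6.20%), or 8.2% in all, against 10.1%, which is near the background. With limma 0 passed an adjusted p under 0.05. The 14 prolyl and lysyl hydroxylases and their partners split 7 to 7, with a median of −0.03. P4ha3 (−0.87) and Plod3 (−0.45) had the smallest p on the lower side, and P4hb (0.65) and Crtap (0.27) on the higher side. A second P4ha3 probe differed by −0.11. Of 11 chaperone and export genes 6 were lower, with a median of −0.19. Those with the smallest p were Mia3 (−0.37), Creb3l1 (−0.31), Tmem38b (1.72) and Sparc (0.48). The second probe of Mia3 differed by −0.01 and that of Sparc by 0.07. Tmem38b, an ion channel of the endoplasmic reticulum, had every labelled p21-null array above every wild-type array, as did 4.44% of all features. Of the 8 propeptidases and their enhancers that passed the filter 5 were lower, with a median of −0.19, while Tll2 was not above background on any array. Those named by the same rule were Adamts14 (−0.45), Furin (−0.22), Tll1 (0.88) and Pcolce2 (0.66); the second probe of Adamts14 differed by 0.08 and that of Tll1 by −1.43.

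The cross-linking enzymes split. Loxl1, an oxidase of elastic fibres, stood at −0.39, 0.18 and 0.17 in labelled p21-null arrays, against 1.98, 1.71, 0.32, 0.60 and 1.91 in wild type. Every labelled p21-null array was below every wild-type array, as for 2.44% of all features, and the difference was −1.32. The unadjusted limma p was 0.0188, the adjusted p was 0.388 and the two-sided exact permutation p was 0.0357. Pxdn, peroxidasin, which makes the sulfilimine cross-links of type IV collagen, stood at 2.22, 2.76 and 1.87, against 3.26, 3.66, 2.64, 3.27 and 4.04, and differed by −1.09 (limma adjusted p = 0.387). Its direction was that of Col4a1 and Col4a2. Loxl2, an oxidase that cross-links type IV collagen too, stood at 1.78, 1.38 and 2.77, against 0.64, 1.45, −1.37, 0.43 and 1.22, and differed by 1.5 on its brightest probe (limma adjusted p = 0.476). Its other 2 probes, above background on all 8 arrays too, differed by −0.55 and −0.74, so the probes disagreed in sign, and the mean over the 3 differed by 0.07. Tgm2, tissue transglutaminase, stood at 2.74, 1.71 and 2.68, against 2.04, 1.06, 0.47, 1.28 and 1.5, and differed by 1.11 (limma adjusted p = 0.413). On the brightest probes the median of the 7 genes was 0.98, with 3 lower and 4 higher. Both rest on the probe of Loxl2: with either of its other 2 probes Loxl2 would be among the lower genes and the median would be negative.

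Of 11 small leucine-rich proteoglycans, which coat fibrils, 9 were lower, with a median of −0.66. Epyc, epiphycan of cartilage, was above background on 0 of 3 labelled p21-null and 4 of 5 wild-type arrays, and was at least 5.07-fold lower, a bound that takes, on each labelled p21-null array, the higher of the probe's own signal and the dimmest signal among probes well above background (limma adjusted p = 0.485). Leaving out wild-type replicate 2 gave a bound of 2.32, and leaving out wild-type replicate 1 gave 10.9. Chad, chondroadherin of cartilage, differed by −1.48, Omd by 1.45 and Lum by 0.20. Of 10 collagen receptors 6 were lower, with a median of −0.23: Itga1 differed by −1.23, Ddr1 by −0.99, Gp6 by 1.37 and Itgb1 by 0.75. Other cell type markers differed as well. All 20 mesenchyme and smooth muscle markers were lower in labelled p21-null arrays, though Myh11 had a value on 1 wild-type array only and Meis1 differed by −0.05. The mean of the 19 genes with a value on every array was −0.80, −0.50 and −1.16 in labelled p21-null arrays, against −0.30, 0.23, −0.19, 0.15 and 0.80 in wild type. The log2 of their summed signal ranged from 4.33 to 4.85, against 5.19 to 5.87. All 15 liver markers were higher, with list means of 4.25, 2.86 and 4, against 1.26, −0.65, 1.69, 1.14 and 3.13, and summed signals of 7.34 to 8.48, against 4.14 to 7.71. All 17 neural crest, glia and neuron markers were lower (mean difference −1.45) and 11 of 12 erythroid markers higher (1.93). Macrophage markers were higher in 10 of 13 cases (mean difference 0.93), with summed signals of 4.97 to 5.42, against 4.33 to 4.98. Mesothelium markers were lower in 6 of 7 (−0.93) and glomerulus and podocyte markers in 8 of 10 (−0.49). Endothelium markers split 7 to 7 (0.17), and gonadal somatic cell markers were lower in 7 of 12 (−0.25). In these 9 lists 0 genes were undetected on every array. Their part in the collagen differences was not tested.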

How the data were processed

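Expression was measured on 8 single-colour (Cy3) arrays. The deposited scanner files hold linear intensity values that Agilent Feature Extraction 10.7.3.1 had corrected for background, per the file headers. A series table deposited by the authors holds log2 values; the submitters' processing notes name limma, with no version. Every column of it had a median of 9.26, and the table was used as an alternative only.

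From the log2 of the processed intensity, the 75th percentile of the array's non-control spots was subtracted. Spots marked as outliers were dropped and spots of a probe averaged. Probes were named through RefSeq accessions (26056 of 55681 named), filtered to those well above background on 3 or more arrays (50046), and the brightest probe stood for a gene (33619 genes and unnamed features). Gene coordinates and promoters are of GRCm38.p6. The comparison used lmFit and eBayes of limma 3.58.1 (R 4.3.3) without covariates and Benjamini-Hochberg adjustment over all features, and single genes with the exact permutation test. The code was tested on simulated data. Slides were read from the file names. The number of arrays limits the precision. Alternatives were other scalings, background corrections, filters, probe rules, slide and replicate blocks, moderation, array weights, the deposited table and leaving out each array; a probe rule requiring values on all 8 arrays was chosen after seeing the data. The collagen members, classes and gene lists were chosen with earlier results of these data known, and companion genes were named as the 2 with the smallest p in each direction of each list. No probe was found here for Prelp, Itga10, Ahsp and Cd68. Hsp47, listed among the chaperones, is an older name of Serpinh1, which the list holds too, and was counted once.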

Additional observations from a re-analysis of the deposited data

Results flagged for a closer look

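Among 41 sets of wild-type values tested for a sample far from the others, 1 was picked out. For Col22a1, wild-type replicate 1 stood at −7.86, and the nearest of the other wild-type arrays at −0.27. The gap was 0.73 of the range, above the critical value of 0.71 for 5 samples. Chance picks out about 1 in 20 such sets.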

How the results depend on the processing

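The count of collagens at an adjusted p under 0.05 was 0 in each of the 24 fits. In the fits that measured all 38, 27 (without wild-type replicate 2) to 32 were lower on average, and with probes above background on all 8 arrays 26 of 32 were. The count lower at an unadjusted p under 0.05 (4) was 7 with normexp and the 75th percentile, 2 with slide as a fixed block, 7 with trend and robust moderation, 15 with array weights, and 0 to 11 when single arrays were left out. The count higher (0) was 1 with array weights and 0 to 3 when single arrays were left out (3 without labelled p21-null replicate 2). The companion count at an unadjusted p under 0.05 (5) was 3 with the mean over probes, 3 with slide as a fixed block, 8 with array weights and 1 to 7 when single arrays were left out (1 without labelled p21-null replicate 1, and 3 without either wild-type replicate 4 or labelled p21-null replicate 3). Array weights gave labelled p21-null replicate 3 a weight of 3 and the others 0.501 to 1.40. Within slide 2 the fibrillar median was −1.83 and the type IV median 0.48. When single arrays were left out the fibrillar median ranged from −0.49 to 0.46, the type IV median from −0.91 to −0.58 and that of the other chains from −1.14 to −0.62. For each of these, the cause was not tested.

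Of the 38 collagens 26 kept their sign in every fit with a value and 12 did not. Same-numbered samples did not deviate together (correlations of 0.0676, −0.0857 and −0.0734), so no pairing by number was seen. These values cannot exclude a pairing, and the labels do not say what the numbers stand for. With the replicate block the count lower at an unadjusted p under 0.05 was 5, and the medians were 0.34 for fibrillar, −0.89 for type IV and −0.76 for other chains. Probes near background limit Col5a3, Col8a1, Col17a1, Col19a1, Col22a1 and Col24a1, and outlier marks limit Col4a4.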
